A study of Mus musculus with 30 samples.

Results

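The ovary at 12.5 days post coitum (dpc) was set against the ages on either side of it, 11.5 and 14.5 dpc, to find transcripts that peaked or dipped at that age. RNA of pooled mouse embryonic ovaries, from mice labelled BL/6-129, had been hybridised to 3 types of Affymetrix array with different probe sets, named A, B and C below. The 2 samples of 12.5 dpc were compared with the 2 of 11.5 dpc and the 2 of 14.5 dpc, each with 1 array of every type, which is 18 of the 30 arrays of the series. The other arrays, of 16.5 and 18.5 dpc, entered the estimate of the spread and are described afterwards. No mutation or treatment is labelled for any group. Per the labels the gonads of 11.5 and 12.5 dpc were sexed by a PCR screen for the male gene Sry, and no such step is given for 14.5 dpc. Whether the 2 samples of an age were separate pools is not stated, so the p-values below speak only of how far these samples differ, and that spread may be technical.

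A probe set belonged to the comparison when both 12.5 dpc samples lay above all 4 samples of 11.5 and 14.5 dpc, or below all 4. Of 24825 tested probe sets, those with a signal of at least 50 on at least 2 of the 10 arrays of their type, 2623 lay above (10.6%) and 2206 lay below (8.89%). A further 861 and 958 met the rule but not the signal filter and were not tested. A transient peak or dip was a probe set of this kind whose log2 difference, 12.5 dpc minus the mean of 11.5 and 14.5 dpc, also had a limma adjusted p under 0.05. There were 48 transient peaks (0.193% of those tested) and 24 transient dips (0.0967%). Differences are on the scale log2(signal + 16), on which changes at low signal come out too small, and errors of differences are standard errors (SE) of the fit.

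At 11.5 to 12.5 dpc the gonad of an XX embryo leaves the state it shares with the male gonad. Primordial germ cells, which keep several genes of pluripotent cells active, have settled in it and still divide. Their supporting cells begin to turn into pregranulosa cells under Wnt4, Rspo1 and Foxl2, and express follistatin. By 14.5 dpc most germ cells have switched the pluripotency genes down and entered meiosis, after induction of Stra8 by retinoic acid.

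The labelled tissue had its defining transcripts at 12.5 dpc. The germ cell markers Pou5f1, Dazl and Ddx4 had signals of 521 and 313, 926 and 532, and 178 and 138 in the 12.5 dpc samples. Those of the somatic markers Wnt4, Gata4 and Wt1 were 1428 and 1517, 1079 and 776, and 839 and 579. That Wnt4 probe set has an r in its suffix and may match other transcripts, and the other one had 273 and 204. The somatic marker Fst had 413 and 236. Foxl2 had 243 and 92.8, against 94.5 and 89.5 at 11.5 dpc, so 1 of its 12.5 dpc samples was near the earlier level. The testis gene Amh stayed below the signal filter, and the testis list is described further on. Across all 10 samples the 7 probe sets of the Y-linked genes Sry, Eif2s3y, Kdm5d and Uty stayed at or below 47.3. Uty had 13.2 and 17.9 at 12.5 dpc against 2.3 to 3.4 in the 4 neighbouring samples, and 1 of the 3 Kdm5d probe sets had 14.5 and 13.4 against 2.2 to 11. Xist, the RNA of the inactive X chromosome, had 353 and 398 at 12.5 dpc, against 74.7 and 236 at 11.5 dpc and 295 and 149 at 14.5 dpc. Both 12.5 dpc samples lay above the others, but the Xist difference of 1.08 ± 0.33 did not pass (limma adjusted p = 0.19).

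A group of primordial germ cell and pluripotency genes held 5 of the peaks. Of the 23 tested genes of that list, 5 were called as transient peaks, namely Pou5f1, Utf1, Zfp42, Dppa2 and Tcl1, and none as a dip. Both 12.5 dpc samples lay above all 4 others in 14 of the 23 (60.9%), against 9.41% of all 12589 tested genes, and none lay below, against 9.62%. The 5 called genes were on array A, where 12% of tested probe sets lay above and 7.27% below. On that type the median signal was 60.2 and 60 at 12.5 dpc, against 47 to 56.5 in the neighbours. The part of this offset was not tested, and with quantile normalization 16 of the 23 lay above. The median difference was 0.71 over the list and -0.01 over all tested genes. It was 0.61 against 11.5 dpc and 1.02 against 14.5 dpc. A lower share of germ cells in the ovary and less RNA per germ cell cannot be told apart in these pooled tissues. The list was written with earlier results of these data known.

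Pou5f1, which encodes the pluripotency factor OCT4, had signals of 521 and 313 in the 12.5 dpc samples, against 250 and 193 at 11.5 dpc and 122 and 102 at 14.5 dpc. Each 12.5 dpc sample was above each of the others, and the 12.5 dpc samples differed from each other by more than those of either neighbour. The rise was 2.42-fold over the mean of both ages (log2 difference 1.28 ± 0.21, limma adjusted p = 0.029). Utf1, a chromatin protein of pluripotent cells, had 433 and 353 at 12.5 dpc, against 172 and 257 at 11.5 dpc and 86.1 and 123.8 at 14.5 dpc. Its difference was 1.31 ± 0.22 (adjusted p = 0.031 by limma).

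Zfp42, known as Rex1, had 121 and 99.5 at 12.5 dpc, against 54.5 and 61.6 at 11.5 dpc and 16.7 and 14.4 at 14.5 dpc. Its difference was 1.38 ± 0.23, larger against 14.5 dpc (1.99) than against 11.5 dpc (0.76). For Dppa2, a chromatin regulator of pluripotent and germ cells, the 12.5 dpc signals were 125 and 115, against 52.8 and 51.4 at 11.5 dpc and 44.2 and 37.3 at 14.5 dpc. It stood out by similar amounts on both sides, 1.00 against 11.5 dpc and 1.26 against 14.5 dpc. Tcl1, a cofactor of the kinase Akt, had 107 and 117 at 12.5 dpc, against 60.6 and 67.7 at 11.5 dpc and 38.1 and 27.8 at 14.5 dpc. Its signals at 18.5 dpc were 144 and 132, so 12.5 dpc was not its highest age. All 5 genes had their 12.5 dpc samples clear of both neighbours, and in all 5 the lowest values of the 3 ages were those of 14.5 dpc.

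The stretches before the start sites of the genes of this list that were called and have an entry in the RefSeq promoter table (build GRCm38.p6) are shown because these genes moved together. Each is the 250 bases before the first listed start, 5′ to 3′ on the gene's strand. Sprr2d, a called gene of another list, is added since it holds the same motif as Zfp42. Capitals mark a match to the octamer ATGCAAAT of POU factors such as OCT4, read on either strand. Pou5f1 lies at chr17:35505782-35506031 (+), Utf1 at chr7:139943606-139943855 (+), Zfp42 at chr8:43307010-43307259 (-), Tcl1 at chr12:105222738-105222987 (-) and Sprr2d at chr3:92338890-92339139 (+).
Pou5f1: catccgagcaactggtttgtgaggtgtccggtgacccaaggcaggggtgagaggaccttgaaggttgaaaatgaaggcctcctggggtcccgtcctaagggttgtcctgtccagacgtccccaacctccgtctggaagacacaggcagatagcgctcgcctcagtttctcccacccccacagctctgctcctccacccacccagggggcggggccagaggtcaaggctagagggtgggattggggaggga
Utf1: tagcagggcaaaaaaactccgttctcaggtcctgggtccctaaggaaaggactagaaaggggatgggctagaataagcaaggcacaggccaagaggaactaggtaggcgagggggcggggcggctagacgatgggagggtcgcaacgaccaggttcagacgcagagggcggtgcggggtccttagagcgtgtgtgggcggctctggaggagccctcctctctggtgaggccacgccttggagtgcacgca
Zfp42: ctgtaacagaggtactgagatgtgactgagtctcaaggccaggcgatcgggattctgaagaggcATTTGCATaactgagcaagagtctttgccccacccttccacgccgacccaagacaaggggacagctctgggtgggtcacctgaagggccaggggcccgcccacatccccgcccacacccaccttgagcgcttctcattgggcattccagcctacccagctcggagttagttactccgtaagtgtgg
Tcl1: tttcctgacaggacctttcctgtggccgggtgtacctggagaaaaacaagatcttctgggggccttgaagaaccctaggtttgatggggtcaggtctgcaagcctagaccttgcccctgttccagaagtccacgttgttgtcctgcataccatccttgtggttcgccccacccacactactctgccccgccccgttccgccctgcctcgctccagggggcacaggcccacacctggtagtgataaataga
Sprr2d: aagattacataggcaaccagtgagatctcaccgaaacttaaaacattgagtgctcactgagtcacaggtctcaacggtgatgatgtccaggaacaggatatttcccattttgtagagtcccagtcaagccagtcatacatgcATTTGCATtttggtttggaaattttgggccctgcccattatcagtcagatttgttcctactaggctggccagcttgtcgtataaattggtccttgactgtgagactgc

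Zfp42 and Sprr2d both held the octamer on the opposite strand, its first base 186 and 108 bases before the start. The assignment of the called probe set to Sprr2d is uncertain, as described below. These 2 genes are 5.88% of the 34 peak genes with an entry, and 435 of 27025 promoters in the table (1.61%) held it. No match was found in the windows of the 17 dip genes with an entry. The E-box CACGTG stood in 11.8% of the peak genes, those of Aatf, Atic, Ube2b and Vgll4, and in 6.05% of all promoters. The E2F letters TTTNNCGC stood in 11.8% of the peak genes (Aatf, Ogt, Srsf1 and Suz12), in Meioc among the dip genes and in 4.39% of all. The NR5A1 letters CAAGGTCA stood in Terb1 among the dip genes, in none of the peak genes and in 1.31% of all promoters. All 4 motifs were read on both strands, and each match is a description of the letters only.

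Other genes of the list lay above both neighbours without a call. Esrrb, an orphan nuclear receptor of pluripotent cells, had 239 and 182 at 12.5 dpc, against 63.5 and 58.9 at 11.5 dpc and 25.6 and 17.9 at 14.5 dpc, a difference of 2.06 ± 0.41 (limma adjusted p = 0.056). Nanog, a homeobox factor, had 232 and 171 at 12.5 dpc, against 120 and 167 at 11.5 dpc and 33.1 and 47.6 at 14.5 dpc (adjusted p = 0.053 by limma). Dppa4, the partner of Dppa2, was just outside the threshold with 479 and 497 at 12.5 dpc, against 284 and 307 at 11.5 dpc and 242 and 201 at 14.5 dpc (limma adjusted p = 0.051). In these 3 genes no sample of 12.5 dpc overlapped the others.

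Members that did overlap were those whose 11.5 dpc level came close to that of 12.5 dpc, or whose 14.5 dpc level did. Sox2, a partner of OCT4, had 494 and 447 at 12.5 dpc against 454 and 316 at 11.5 dpc, and 188 and 215 at 14.5 dpc. Tfap2c, a factor of germ cell specification, had 158 and 145 at 12.5 dpc, against 129 and 181 at 11.5 dpc and 19.8 and 93.0 at 14.5 dpc. Nr6a1, the germ cell nuclear factor, had 270 and 168 at 12.5 dpc, against 69.3 and 114 at 11.5 dpc and 194 and 196 at 14.5 dpc. Fut4, a fucosyltransferase, was the one member with a negative difference, with 5.1 and 6.6 at 12.5 dpc against 4.0 to 60 in the neighbouring samples.

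Supporting cell genes gave 2 transient peaks among 27 tested, Fst and Sprr2d, and 6 of the 27 lay above both neighbours (22.2%, against 9.41% of all tested genes) and 1 below (3.70%, against 9.62%). Fst, which encodes the activin antagonist follistatin, had 413 and 236 at 12.5 dpc, against 22.7 and 71.0 at 11.5 dpc and 203 and 119 at 14.5 dpc. This difference was 1.72 ± 0.31 (limma adjusted p = 0.042), and most of it came from 11.5 dpc (2.50 against 0.94 for 14.5 dpc). Its signals at 16.5 dpc were 317 and 444, so 12.5 dpc was not its highest age. Sprr2d, of the small proline-rich family of the cornified envelope, had 235 and 181 at 12.5 dpc, against 47.9 and 173 at 11.5 dpc and 15.7 and 7.2 at 14.5 dpc. One 11.5 dpc sample came close to the 12.5 dpc samples, and the difference was 2.02 ± 0.36 (limma adjusted p = 0.036). Sprr2 genes are near-identical copies, so the assignment to Sprr2d is uncertain.

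Among the 9 tested genes of the small proline-rich and cornified envelope list, 3 lay above both neighbours (33.3%, against 9.41% of all tested genes), namely Sprr2d, Lor and Sprr2b, and 8 had a positive difference. Sprr2b had 172 and 179 at 12.5 dpc, against 101 and 133 at 11.5 dpc and 123 and 117 at 14.5 dpc, without a call. Lef1 and Axin2, a transcription factor and a target of Wnt signalling, also lay above both neighbours without a call. Lef1 had 603 and 577 at 12.5 dpc, against 357 and 432 at 11.5 dpc and 384 and 395 at 14.5 dpc. Lhx9, a homeobox gene of the early gonad, was the one supporting cell gene below both, with 266 and 300 at 12.5 dpc, against 732 and 393 at 11.5 dpc and 367 and 388 at 14.5 dpc. A second, dimmer Lhx9 probe set lay on the opposite side, with 89.3 and 59.8 at 12.5 dpc against 23.4 to 56.6 in the neighbours. Wnt4, Gata4, Wt1, Nr5a1 and Foxl2, the regulators of the early ovary, overlapped their neighbours.

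The gene that stood out most from both ages was Ap2b1, the beta subunit of the AP-2 clathrin adaptor. It had 609 and 503 at 12.5 dpc, against 72.1 and 79.9 at 11.5 dpc and 46.7 and 105 at 14.5 dpc. Ap2b1 rose 6.37-fold (log2 difference 2.67 ± 0.27, limma adjusted p = 0.0023) and its difference was as large against 11.5 dpc (2.63) as against 14.5 dpc (2.71). Its signals later were 288 and 197 at 16.5 dpc and 118 and 157 at 18.5 dpc, still under those of 12.5 dpc. The 3 other tested probe sets of Ap2b1 had differences of 0.47, 0.50 and 0.96, none of them called. No other gene of the 22 tested clathrin adaptor genes lay above both ages (4.55% with Ap2b1, against 9.41% of all tested genes). Below both ages lay 3 of the 22 (13.6%, against 9.62%).

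Plekhg2, a guanine nucleotide exchange factor, had 337 and 345 at 12.5 dpc, against 60.2 and 180 at 11.5 dpc and 50 and 55.9 at 14.5 dpc (difference 1.96 ± 0.33). Tmed9, a cargo receptor of the early secretory pathway, had 400.0 and 330 at 12.5 dpc, against 138 and 155 at 11.5 dpc and 106 and 103 at 14.5 dpc. Msl2, a ubiquitin ligase of the MSL histone acetylation complex, had 173 and 177 at 12.5 dpc, against 77.2 and 70.9 at 11.5 dpc and 33.4 and 33.3 at 14.5 dpc. In these 3 genes the 12.5 dpc samples were clear of all others, and those of Plekhg2 and Msl2 agreed closely. The limma adjusted p-values were 0.029 for Plekhg2, 0.0030 for Tmed9 and 0.030 for Msl2.

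Lmnb1, the nuclear lamina protein lamin B1, had 360.4 and 355 at 12.5 dpc, against 155 and 184 at 11.5 dpc and 105 and 86.0 at 14.5 dpc, and went on down to 47.8 and 38.3 at 18.5 dpc. The other tested Lmnb1 probe sets had differences of 0.18 and -0.13, without a call. Pla2g2f, a secreted phospholipase A2, had 1863 and 1746 at 12.5 dpc, against 943 and 989 at 11.5 dpc and 828 and 728 at 14.5 dpc. It had a second high level late, 2187 and 2380 at 18.5 dpc, above that of 12.5 dpc. Lyplal1, a lysophospholipase-like protein, had 1207 and 1357 at 12.5 dpc, against 461 and 505 at 11.5 dpc and 772 and 707 at 14.5 dpc. Its 16.5 dpc signals of 1159 and 1038 came close to those of 12.5 dpc.

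Aatf, a nucleolar protein that acts in transcription and ribosome production, had 474 and 374 at 12.5 dpc, against 161 and 202 at 11.5 dpc and 212 and 231 at 14.5 dpc. Srsf1, a splicing factor, had 392.2 and 410 at 12.5 dpc, against 206 and 273 at 11.5 dpc and 147 and 171 at 14.5 dpc. In these probe sets both rose about 2-fold over the neighbours (1.02 ± 0.18 and 0.99 ± 0.19, limma adjusted p = 0.031 and 0.044). The other tested Srsf1 probe sets had differences of 0.40, -0.03, -0.23 and -0.49, none of them called.

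**Figure D1:**
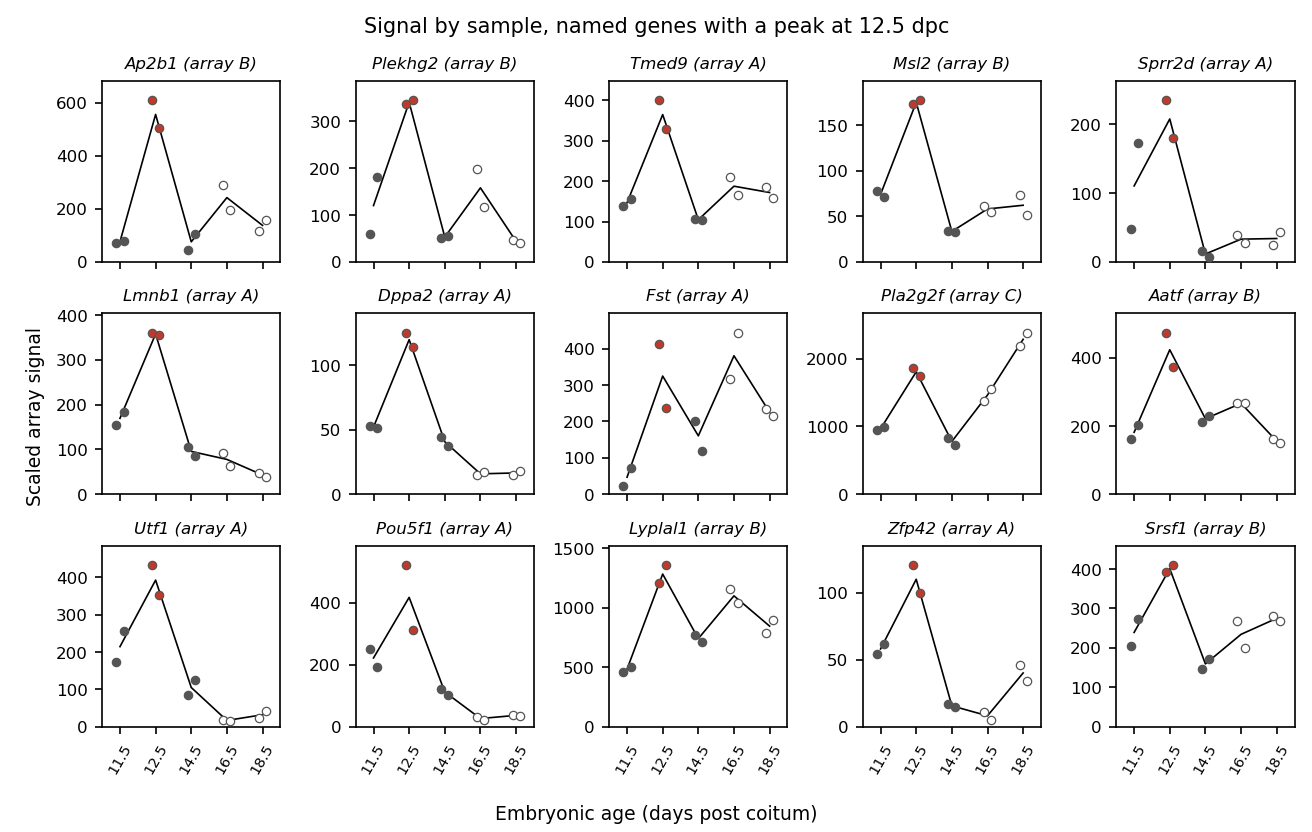
Array signal (vertical axis, scaled so that an array's mean is 125) by embryonic age in dpc for the 15 named genes with a transient peak. Each point is 1 sample (2 per age), red for 12.5 dpc, grey for the neighbouring ages and open for later ages, and the line joins age means. Both red points lie above all grey points in each panel, while Fst and Pla2g2f reach higher means at a later age.

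Over all 48 transient peaks the median difference was 1.38, between 0.86 and 2.74. They were 19 of the probe sets tested on array A (0.254%), 25 of those on B (0.275%) and 4 of those on C (0.0486%). In 28 of the 48 the smaller of the differences from the 2 ages was at least 1, against 187 of the 2623 probe sets above both ages. The difference from 14.5 dpc was the larger one in 31 and that from 11.5 dpc in 17. Just inside the threshold stood Ogt, the enzyme that adds O-linked N-acetylglucosamine, with 298 and 172 at 12.5 dpc, against 18.9 and 51.9 at 11.5 dpc and 61.9 and 7.0 at 14.5 dpc (limma adjusted p = 0.049). Just outside stood Emc1, of the membrane protein insertion complex, with 290.0 and 180.1 at 12.5 dpc, against 80.4 and 84.9 at 11.5 dpc and 117 and 115 at 14.5 dpc (limma adjusted p = 0.05).

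**Figure D2:**
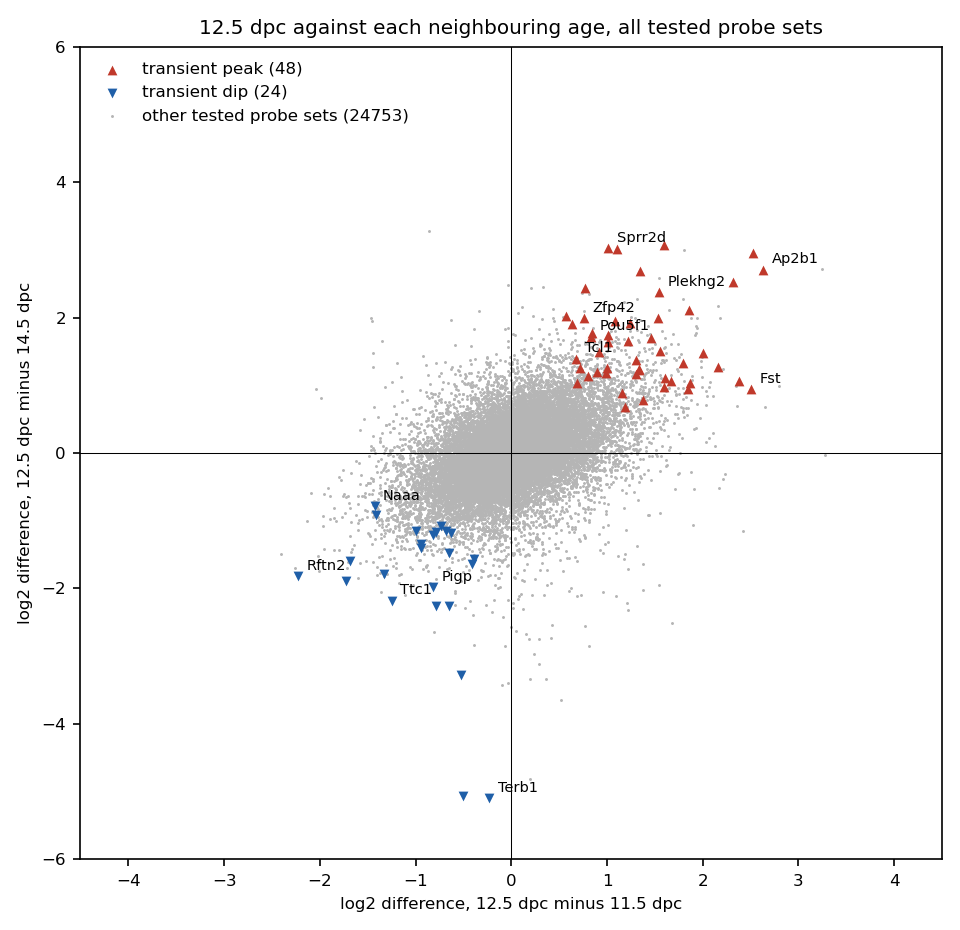
Difference of 12.5 dpc from 11.5 dpc (horizontal axis, log2) and from 14.5 dpc (vertical axis, log2) for all 24825 tested probe sets, with the 48 transient peaks as red triangles and the 24 transient dips as blue ones. Both axes share the 12.5 dpc samples, so the slope of the cloud shows no relation. Ap2b1 is far out on both axes, whereas Terb1 is far from 14.5 dpc and close to 11.5 dpc.

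Transcripts with a dip at 12.5 dpc were fewer and, for most, differed more from 14.5 dpc (20 of 24) than from 11.5 dpc (4 of 24). Only 5 of the 24 had a smaller difference of at least 1 in size. The median difference was -1.17. Blvrb stood just inside the threshold (limma adjusted p = 0.049) and Eps15, an endocytic adaptor, just outside it (0.051). Of the 24, 14 (58.3%) were probe sets with an added f, i or r in their suffix, against 14.6% of the peaks and 19.5% of all tested. Probes of such sets can match more than 1 transcript, and their match was not checked here. Among the named genes they are 8 of the 12 dips (Rftn2, Snrp1c-ps2, Ttc1, Hacd1, Blvrb, Naaa, Zscan29 and Tpgs2) and 2 of the 15 peaks (Pla2g2f and Lyplal1), and the called probe sets of Meioc and Terb1 are also of this kind.

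Naaa, a lysosomal amidase of N-acylethanolamines, had 644 and 593 at 12.5 dpc, against 2035 and 1402 at 11.5 dpc and 1207 and 958 at 14.5 dpc. It fell by 1.11 ± 0.19 on the log2 scale (limma adjusted p = 0.031), more against 11.5 dpc (-1.43) than against 14.5 dpc (-0.78). Its signals went on to 254 and 281 at 18.5 dpc, the one named dip with a lower mean at a later age. Pigp, an enzyme subunit that starts the synthesis of GPI anchors, had 536 and 725 at 12.5 dpc, against 1593 and 774 at 11.5 dpc and 2805 and 2255 at 14.5 dpc. One of its 11.5 dpc samples was close to those of 12.5 dpc.

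Hacd1, a dehydratase of fatty acid elongation, had 654 and 709 at 12.5 dpc, against 1434 and 1323 at 11.5 dpc and 1335 and 1762 at 14.5 dpc, which is 2.11-fold lower at 12.5 dpc (limma adjusted p = 0.036). The other tested Hacd1 probe set did not show this, with 503 and 454 at 12.5 dpc, against 523.5 and 388.5 at 11.5 dpc and 388 and 385 at 14.5 dpc. Blvrb, biliverdin reductase B, had 362 and 480.1 at 12.5 dpc, against 703 and 945 at 11.5 dpc and 876 and 1348 at 14.5 dpc. Arhgap26, a GTPase-activating protein, had 395 and 448 at 12.5 dpc, against 952 and 716 at 11.5 dpc and 1090 and 1196 at 14.5 dpc. Hacd1, Blvrb and Arhgap26 had 12.5 dpc samples clear of every neighbour, with differences from either age between -1.41 and -0.94.

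Rftn2, of the raftlin family of membrane raft proteins, had the largest difference of the named dips, with 239 and 58.2 at 12.5 dpc, against 701 and 560 at 11.5 dpc and 438 and 500.1 at 14.5 dpc. Its 12.5 dpc samples were far apart, and the difference was -2.02 ± 0.38 (limma adjusted p = 0.049). Ttc1, a tetratricopeptide repeat protein, had 51.4 and 132 at 12.5 dpc, against 225 and 218 at 11.5 dpc and 443 and 431 at 14.5 dpc. Snrp1c-ps2, annotated as a pseudogene, had 59.7 and 66.1 at 12.5 dpc, against 260 and 216 at 11.5 dpc and 214 and 232 at 14.5 dpc. Its probes may read the parent gene.

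In the other 4 named dips, as in Pigp, Ttc1, Arhgap26, Blvrb and Hacd1, the 14.5 dpc level lay further off than that of 11.5 dpc. Xlr5a, of a multicopy gene family on the X chromosome whose copies the probes may not tell apart, had 65.4 and 69.1 at 12.5 dpc, against 107 and 123 at 11.5 dpc and 435 and 337 at 14.5 dpc. Amn1, a homologue of a yeast regulator of mitotic exit, had 135 and 143 at 12.5 dpc, against 287 and 178 at 11.5 dpc and 439 and 395 at 14.5 dpc. Tpgs2, a subunit of the tubulin polyglutamylase, had 208 and 215 at 12.5 dpc, against 333 and 239 at 11.5 dpc and 601 and 715 at 14.5 dpc. Zscan29, a zinc finger protein, had 225 and 269 at 12.5 dpc, against 391.6 and 446 at 11.5 dpc and 479 and 595 at 14.5 dpc. Differences of these genes from 11.5 dpc were between -0.73 for Zscan29 and -0.39 for Tpgs2.

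**Figure D3:**
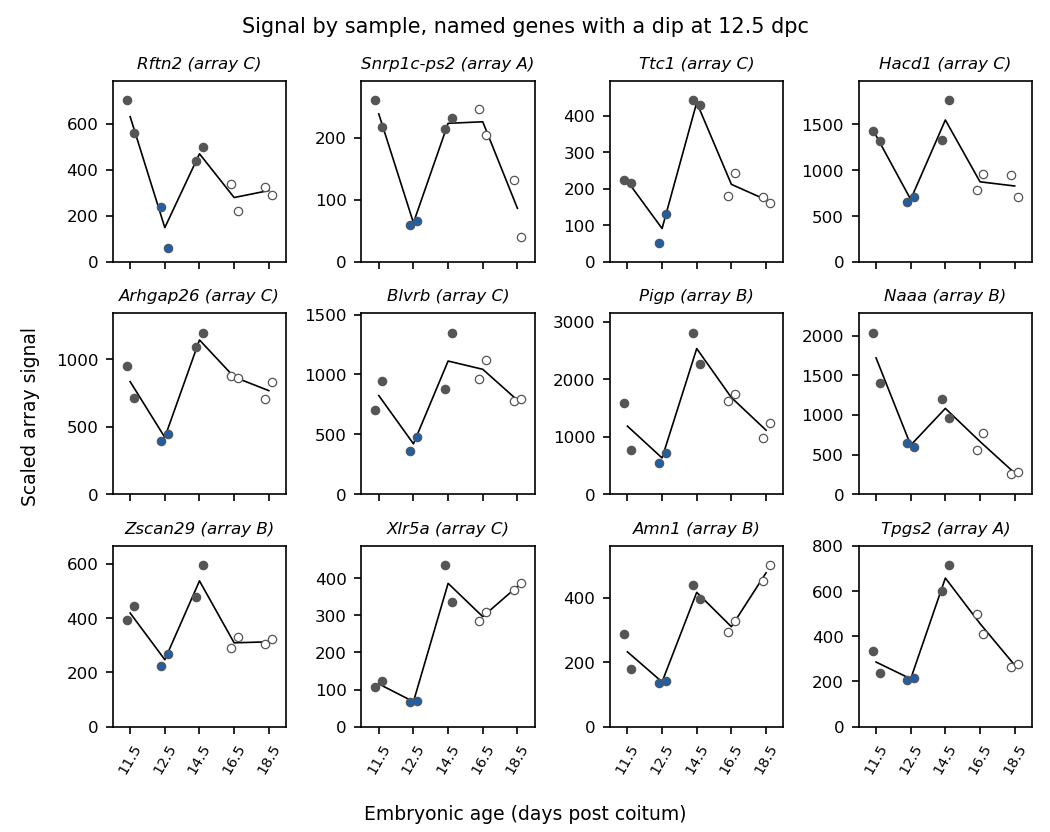
Array signal (vertical axis, scaled so that an array's mean is 125) by embryonic age in dpc for the 12 named genes with a transient dip. Each point is 1 sample (2 per age), blue for 12.5 dpc, grey for the neighbouring ages and open for later ages, and the line joins age means. Rftn2, Snrp1c-ps2, Hacd1 and Naaa are low against both neighbours by like amounts or more against 11.5 dpc, whereas Xlr5a, Amn1 and Tpgs2 differ more from 14.5 dpc.

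Meiotic genes supplied the remaining dips that were called on a list. All 20 tested genes of meiotic prophase had a negative difference, with a median of -0.66, but the median was 0.01 against 11.5 dpc and -1.61 against 14.5 dpc. Meioc, which keeps meiotic transcripts in meiotic germ cells, had 1.6 and 0.8 at 12.5 dpc, against 7.2 and 9.5 at 11.5 dpc and 762 and 411 at 14.5 dpc. Terb1, which ties telomeres to the nuclear envelope in meiosis, had 5.1 and 3.0 at 12.5 dpc, against 5.3 and 9.8 at 11.5 dpc and 632 and 716 at 14.5 dpc. Both met the rule for a dip, yet their signals were under 10 at both earlier ages, far under the filter of 50. In all, 7 of the 20 lay below all 4 samples (35%, against 9.62% of all tested genes), but the 11.5 and 12.5 dpc means of these 7 were all under 50, so the count rests on the order of signals near background.

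Sycp3, of the synaptonemal complex, had 6.2 and 9.1 at 12.5 dpc, against 30.5 and 20.7 at 11.5 dpc and 95.2 and 180.3 at 14.5 dpc, below all 4 without a call. Syce1, a central element protein of the synaptonemal complex, had 297 and 202 at 12.5 dpc, against 36.1 and 112 at 11.5 dpc and 1351 and 1613 at 14.5 dpc. Germ cell RNA-binding genes had no member outside both ages among 12 tested, where 9.41% of all tested genes lay above and 9.62% below. Their medians were 0.26 against 11.5 dpc and -0.78 against 14.5 dpc. Ddx4, the vasa helicase, had 178 and 138 at 12.5 dpc, against 41.7 and 85.5 at 11.5 dpc and 279 and 294 at 14.5 dpc.

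**Figure D4:**
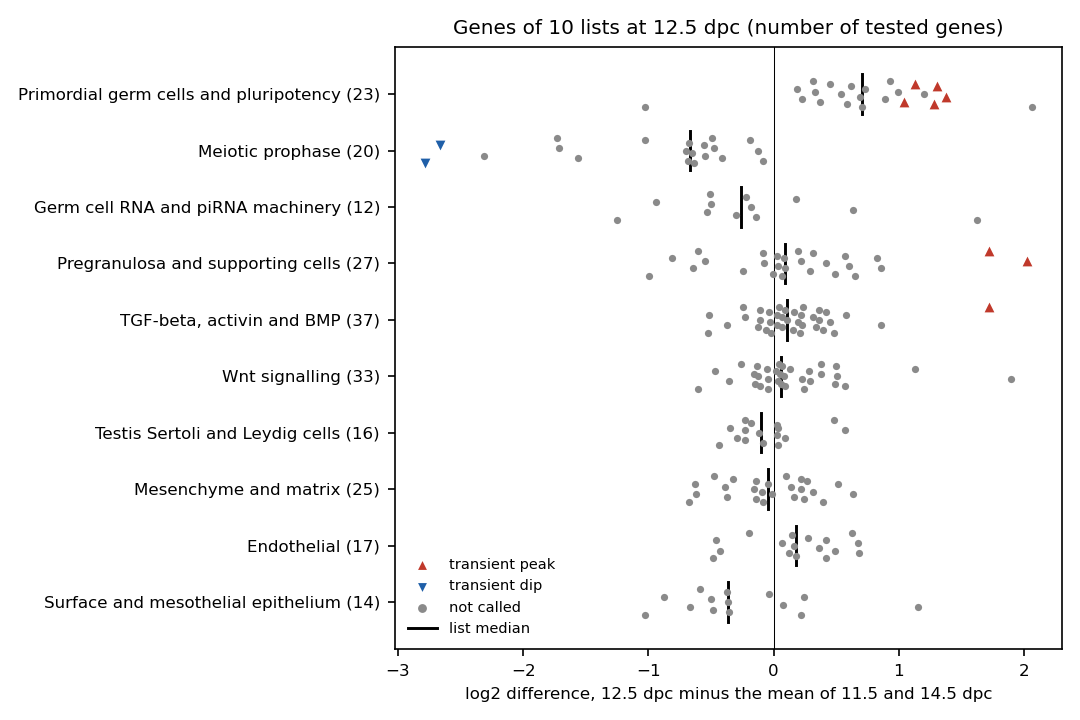
Log2 difference of 12.5 dpc from the mean of 11.5 and 14.5 dpc (horizontal axis) for the tested genes of 10 lists, each point 1 gene, with triangles for calls and a bar at the list median. The pluripotency genes lie above 0 in all but 1 case and the meiotic genes lie below 0 in every case, while the lists of supporting and other cells lie on both sides.

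The lists of markers of other cells that the tissue could hold gave no transient peak or dip. Outside these lists, the macrophage gene Mpeg1 was called as a dip, with 18.1 and 12.1 at 12.5 dpc, against 57.4 and 66.5 at 11.5 dpc and 72.9 and 112.1 at 14.5 dpc (limma adjusted p = 0.029). It was chosen for mention after its values were seen. Over all tested genes 9.41% lay above both ages and 9.62% below. Of 16 tested testis genes 1 lay above both ages, Rhox5, and none below, and the defining testis gene Sox9 had 644 and 823 at 12.5 dpc, against 823 and 892 at 11.5 dpc and 822 and 776 at 14.5 dpc. That Sox9 probe set has an f in its suffix and may match other transcripts, and the 4 other Sox9 probe sets had signals of 12.1 to 146.5 in these 6 samples. Summed over the list, the testis signal was 3970 and 4297 at 12.5 dpc, against 4089 to 4347 in the neighbouring samples. Of 11 mesonephros genes 1 lay above, of 9 adrenal genes 1, and of 10 macrophage genes none on either side. Erythroid genes lay above in 3 of 14 cases (21.4%), with a summed signal of 20084 and 25079 at 12.5 dpc and 17019 to 23148 in the neighbours. Endothelial genes lay above in 2 and below in 2 of 17. Surface epithelium genes had a median difference of -0.37, with 1 above and 2 below of 14. The part of any of these cells in the peaks and dips was not tested.

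Later ages, which the rule did not use, were described for the called probe sets. The 12.5 dpc mean was the highest of all 5 ages in 43 of the 48 peaks (89.6%) and the lowest in 23 of the 24 dips (95.8%). Among all probe sets above both neighbours it was the highest in 70.7%, and among all below it was the lowest in 65.6%. In 38 of the 48 peaks (79.2%) the 16.5 dpc mean was above that of 14.5 dpc, against 69.4% of all probe sets above both neighbours. This was so for Ap2b1 and Plekhg2, whereas Pou5f1, Utf1, Zfp42, Dppa2 and Lmnb1 were lower still at 16.5 dpc. The calls were selected for extreme 12.5 dpc values and for 14.5 dpc values far from them. Larger shares among the calls therefore follow in part from that choice.

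Other probe sets of the same genes gave, in the median, smaller differences. Of the 41 named genes with a peak, 31 had another tested probe set that was not called, 69 in all. Of these 69, 50 had a positive difference (72.5%, against 51.5% of all tested probe sets), 19 lay above both ages (27.5%, against 10.6% of all) and 3 lay below both (of Meg3, Mtm1 and Srsf1). Their median difference was 0.33, against 1.39 for the called probe sets. The called ones were selected for a large difference, so the direction of this comparison was set by that choice. In genes with several tested probe sets, the called probe set was not the brightest in 24 of 32 cases among the peaks (75.0%), against 60.9% of all probe sets of such genes. Counted by each gene's brightest probe set, 18 of 12589 genes had a peak (0.143%) and 17 a dip (0.135%).

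Single genes showed how far probe sets could differ. The other Pou5f1 probe set had 15.8 and 66.8 at 12.5 dpc, against 78.4 and 50.2 at 11.5 dpc and 63.4 and 55.7 at 14.5 dpc, without the pattern of the called one. The other Fst probe set had 192 and 129 at 12.5 dpc, against 78.9 and 132 at 11.5 dpc and 162 and 114 at 14.5 dpc. For Rftn2 both others overlapped between ages. Resf1, a gene of retroelement silencing, had a called probe set (177 and 175 at 12.5 dpc, 32.8 and 73.9 at 11.5 dpc, 43.6 and 22.9 at 14.5 dpc). A brighter one of Resf1 also lay above both ages, with 634 and 761 at 12.5 dpc against 59.8 to 306 in the neighbours, and had the larger difference, 2.09 against 1.77 for the called one. A second such case was Meg3, a maternally expressed long RNA, with 1.47 in another probe set against 1.34 in the called one. For the 13 dip genes with other probe sets, 14 of 21 others had the same sign (66.7%, against 48.5% of all) and the median was -0.07. Only 3 of the 21 lay below both ages (14.3%, against 8.89% of all), and 1 lay above both. Among the named dips, the others had differences of 0.19 for Hacd1, 0.14 and -0.33 for Blvrb and -0.17 for Ttc1. They were -0.06 for Amn1, -0.39 for Naaa, and -0.82 and -0.73 for Tpgs2.

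The control probe sets for beta-actin moved with the comparison. The ratio of its 3 prime to its 5 prime signal, a sign of how much of the RNA is full length, averaged 1.18 and 1.30 over the arrays of the 12.5 dpc samples. It was 1.77 and 1.5 at 11.5 dpc and 1.71 and 2.19 at 14.5 dpc, and both 12.5 dpc samples lay below all 4 others on each of the 3 array types. At 16.5 and 18.5 dpc it was between 1.54 and 1.82. The Gapdh ratio did not separate 12.5 dpc on any type, with 0.83 and 0.838 at 12.5 dpc, against 0.845 and 0.829 at 11.5 dpc and 0.884 and 0.951 at 14.5 dpc, and neither did the ratios of the other 3 control transcripts on any single type. Averaged over the types, the 18S ratio was 3.94 and 4.63 at 12.5 dpc, against 4.72 to 7.31 in the neighbours, and so lay below them. The part of RNA quality in the peaks and dips was not tested.

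**Figure D5:**
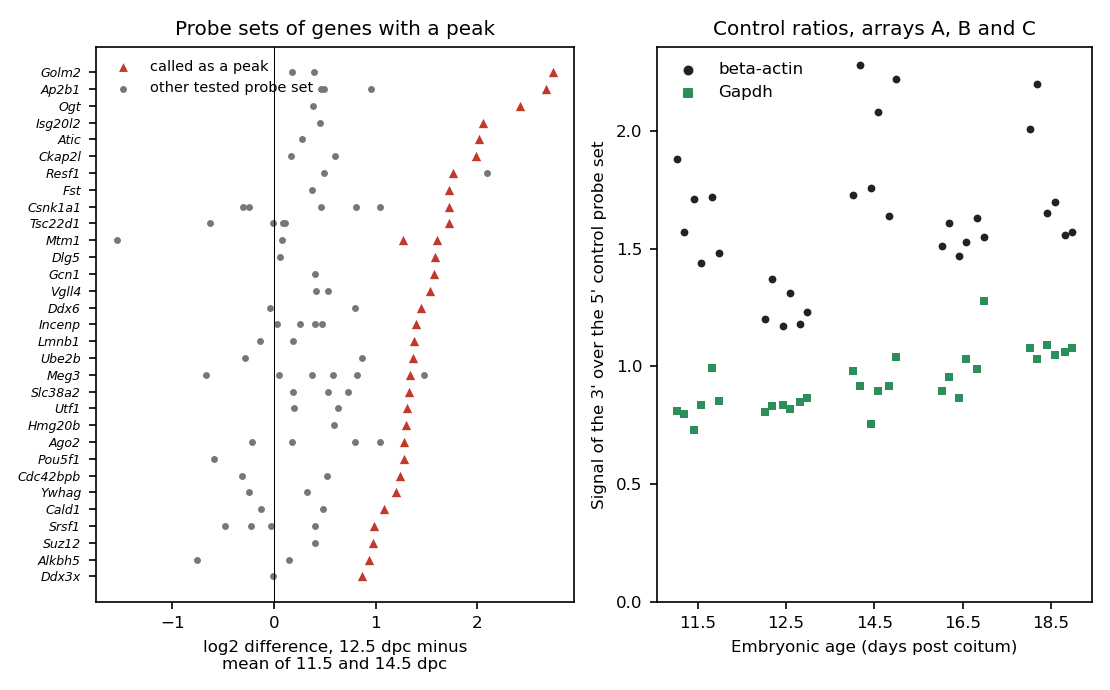
Left, log2 difference of 12.5 dpc from the mean of 11.5 and 14.5 dpc for every tested probe set (points) of the 31 genes that have a called peak (red triangles) and another tested probe set (grey). Right, ratio of the 3 prime to the 5 prime control signal of beta-actin (black) and Gapdh (green) by age, each point 1 array of a sample (A, B and C from left to right). In most genes the grey points lie nearer to 0 than the called ones, which were selected for a large difference. The beta-actin ratio is lowest at 12.5 dpc.

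The calls depend on having both 12.5 dpc samples and on the spread of all ages. Of 24825 probe sets, 95 passed the contrast (0.383%), 51 of them higher at 12.5 dpc and 44 lower, and 3385 had an unadjusted p under 0.05. With 12.5 dpc replicate 1 left out there were 0 peaks and 1 dip, Rftn2, and 1737 probe sets with an unadjusted limma p under 0.05. With 12.5 dpc replicate 2 left out there were 0 of either and 2437 such probe sets, also by limma. With 11.5 dpc replicate 2 left out there were 319 peaks and 332 dips, which include all 48 and all 24. Peaks and dips numbered 26 and 13 with replicate 1 of 11.5 dpc left out. They numbered 74 and 14 with replicate 1 of 14.5 dpc left out, and 13 and 2 with its replicate 2 left out. Without 1 sample of 16.5 dpc they numbered 15 or 17 and 4, and without 1 of 18.5 dpc 31 and 11. The pluripotency list, with 5 peaks in the full fit, had 0 when either 12.5 dpc sample, replicate 2 of 14.5 dpc or replicate 1 of 16.5 dpc was left out. It had 1 when replicate 1 of 11.5 dpc or replicate 2 of 16.5 dpc was left out, 3 when replicate 1 of 14.5 dpc or either 18.5 dpc sample was, and 9 when replicate 2 of 11.5 dpc was. Its median stayed between 0.64 and 0.87 in all 10 of these fits. It also had 0 peaks without the filter on low signal, with only the 3 ages in the fit and with a level interpolated in time, and 1 with log2(signal + 1). The supporting cell list, with 2 peaks in the full fit, had 0 with log2(signal + 1), without the filter, without the intensity trend and with only the 3 ages in the fit. With 1 sample left out it had 0 peaks without either sample of 12.5 or 16.5 dpc or replicate 2 of 14.5 dpc, 4 without replicate 2 of 11.5 dpc and 1 in the other cases.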

How the data were processed

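Each deposited value was the signal intensity of 1 probe set on 1 array, which the authors had scaled so that an array averages 125, as the labels state. How signals were computed from the scans is not given in the sources used. Gene symbols came from the platform annotation: 29131 probe sets had 1 symbol, 724 several and 6846 none, and only the first kind was named. The 198 control probe sets were left out of the 36701 that were analysed.

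Signals were taken as log2(signal + 16). Probe sets with a signal of at least 50 on at least 2 of 10 arrays were kept. Per array type, limma fitted age as a factor of 5 levels over all 10 arrays, in version 3.58.1 under R 4.3.3 (eBayes with an intensity trend, 5 residual degrees of freedom before moderation). The contrast was 12.5 dpc minus the mean of 11.5 and 14.5 dpc, with Benjamini-Hochberg adjustment over the 3 types together. Precision is limited by the number of arrays. Where a gene had several tested probe sets, that of the highest mean stood for it. Arrays A, B and C were scaled separately, so signals are not compared between types.

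Genes were named by a rule: up to 15 called peaks and 15 dips whose mean signal reached 100 at 12.5 dpc (peaks) or at both neighbours (dips), in order of the smaller difference, up to 4 members per list, and a fixed set of well-known genes. Others are named as examples chosen after their values were seen. The members and all 28 gene lists were chosen with earlier results of these data known. Of 680 listed genes 678 were in the RefSeq gene table. Promoters are RefSeq's, and those of Dppa2, Fst and Lmnb1 are not shown. The fit was tested on simulated data. Alternatives were the pseudocount, the filter, quantile normalization, the trend, the ages in the fit, a replicate block, an interpolated level, adjustment within an array type and leaving out each sample. Deviations of samples with the same replicate number had correlations of -0.094 to 0.219. These do not settle whether the numbers pair samples, and the main fit did not pair them.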

Additional observations from a re-analysis of the deposited data

How the results depend on the processing

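The counts of contrast calls, peaks and dips were 95, 48 and 24. They were 59, 28 and 17 with log2(signal + 1), 25, 14 and 2 without a filter on low signal, and 30, 20 and 4 without the intensity trend. With only the 3 ages in the fit they were 12, 5 and 3, where fewer arrays give the spread. Against the level interpolated in time, which weights 11.5 dpc more, they were 25, 17 and 4. With plain _at probe sets only, an alternative chosen after seeing the data, they were 45, 26 and 7. The pseudocount of 50, a floor of 100, quantile normalization and adjustment within each array type kept every one of the 3 counts within 1.5 times. With 1 sample left out the contrast calls ran from 0 to 691, the peaks from 0 to 319 and the dips from 0 to 332. In the fits without a 12.5 dpc sample the lone sample is assumed to vary like the other groups. With the replicate number as a block there were 82 calls, 40 peaks and 22 dips, 39 of the peaks and 20 of the dips being those of the fit without it. Whether the numbers pair samples is not settled, so this is a check of the fit only. Other than stated here and in the report, the cause of these changes was not tested.

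Of 2049 differences of named genes recomputed under an alternative, 1712 kept their direction and side of the threshold, 299 lost the call, 29 gained one and 9 changed sign. The 9 all concern genes without a call. Foxl2 had 0.05 with the interpolated level and 0.38 without 12.5 dpc replicate 2. Gata4 had -0.01 with the interpolated level, -0.01 without 11.5 dpc replicate 1 and -0.15 without 12.5 dpc replicate 1. Ddx4 had -0.02 and Wnt4 -0.01 without 11.5 dpc replicate 1, Wnt4 had -0.15 without 14.5 dpc replicate 1, and Wt1 had -0.04 without 12.5 dpc replicate 1. With 1 sample left out, their differences ran from -0.87 to 0.38 for Foxl2, -0.15 to 0.31 for Gata4, -0.02 to 0.39 for Ddx4, -0.15 to 0.33 for Wnt4 and -0.04 to 0.48 for Wt1. Of the 27 named peaks and dips, 27 passed with a pseudocount of 50, 26 with quantile normalization, 16 with a pseudocount of 1 and 4 with only the 3 ages in the fit. Probe sets with signals near or under 50 are limited by background, and their differences depend on the pseudocount.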

Other observations

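Immediate early and stress genes lay on both sides of their neighbours at 12.5 dpc, 4 above and 4 below of 18 tested (22.2% each, against 9.41% and 9.62% of all tested genes), none with a call. Fos, a subunit of the AP-1 transcription factor, had 9.7 and 18 at 12.5 dpc, against 64.3 and 34.0 at 11.5 dpc and 45.2 and 58.3 at 14.5 dpc. Jun, its partner, had 25.9 and 41.2 at 12.5 dpc, against 55.3 and 65.5 at 11.5 dpc and 69.5 and 59.7 at 14.5 dpc. Fosb had 113 and 116 at 12.5 dpc against 61.6 to 86.3 in the neighbours, on the other side from Fos and Jun.

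Wnt genes lay above both neighbours in 6 of 33 cases (18.2%, against 9.41% of all tested genes) and below in 1 (3.03%, against 9.62%). Wnt5a, a secreted ligand, had 1092 and 1234 at 12.5 dpc, against 378 and 474 at 11.5 dpc and 938 and 439 at 14.5 dpc (difference 1.13, limma adjusted p = 0.098). Porcn, which adds the lipid that Wnt proteins need for secretion, had 239 and 202 at 12.5 dpc, against 4.5 and 40.3 at 11.5 dpc and 96.4 and 108 at 14.5 dpc. Hypoxia and glycolysis genes lay above in 4 of 25 cases (16%, against 9.41% of all tested genes) and below in none (against 9.62%). Eps15, just outside the threshold for a dip, had 154 and 129 at 12.5 dpc, against 316 and 161 at 11.5 dpc and 413 and 517 at 14.5 dpc (limma adjusted p = 0.051).

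Of the 95 contrast calls 23 were not transient, 3 higher and 20 lower, since the contrast is also passed by a change at 14.5 dpc alone. The meiotic gene Stra8 had 8.6 and 2.7 at 12.5 dpc, against 2.2 and 3.2 at 11.5 dpc and 699 and 496 at 14.5 dpc. Hba-x, an embryonic globin, had 4077 and 4952 at 12.5 dpc, against 4898 and 4308 at 11.5 dpc and 741 and 839 at 14.5 dpc.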
